A study of Mus musculus with 6 samples.

Results

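The miR-23, miR-27 and miR-24 clusters were examined in the liver miRNA libraries through 10 of the 1039 miRNA entries of the table. The members were chosen by name, as the mature miRNAs of a pair of paralogous gene clusters together with the miR-3074 names annotated on the strand opposite miR-24. All 10 were present in the table, and all 10 passed the filter of a mean above 1 RPM (reads scaled so that the miRNA reads of a library sum to 1000000) in at least 1 group, as did 548 entries in all. The J group was 3 wild type ICR mice given JTXK granule, a Chinese herbal compound, by gavage. The M group was 3 wild type ICR mice given sterile water instead. Mice of both groups were 30 weeks old, had high-fat diet (HFD) from the beginning, and were treated for 8 weeks after 12 weeks on the diet. ICR is an outbred stock, and each of the 6 libraries came from the liver of 1 mouse. Bulk liver was sequenced, so fewer cells of a type and less RNA per cell cannot be told apart in any value below.

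The a cluster encodes miR-23a, miR-27a and miR-24-2, and the b cluster encodes miR-23b, miR-27b and miR-24-1. Each hairpin can give a miRNA from its 5′ arm (5p) and from its 3′ arm (3p). The 3p arm is the one usually loaded into Argonaute for all of these hairpins. Bases 2 to 8 of a mature miRNA are its seed, which pairs with target mRNAs. In liver biology miR-27b is known as a regulator of lipid metabolism genes, miR-27 represses Pparg during fat cell formation, miR-24 targets Insig1 of the sterol pathway, and miR-23 targets glutaminase.

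The mature sequences are given here because the paralogs differ by few bases and because the miR-24 and miR-3074 names describe complementary strands. They are the RefSeq sequences of GRCm38.p6, written 5′ to 3′, with the seed in capitals. Of the 10 members, 9 were matched there. mmu-miR-23b-3p was not matched.
mmu-miR-23a-3p: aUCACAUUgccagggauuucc
mmu-miR-27a-3p: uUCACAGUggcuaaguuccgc
mmu-miR-27b-3p: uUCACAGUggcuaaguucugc
mmu-miR-23b-5p: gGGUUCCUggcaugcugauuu
mmu-miR-24-1-5p: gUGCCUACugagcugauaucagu
mmu-miR-24-2-5p: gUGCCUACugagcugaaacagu
mmu-miR-24-3p: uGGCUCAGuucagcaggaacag
mmu-miR-3074-5p: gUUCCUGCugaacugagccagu
mmu-miR-3074-2-3p: uGUUUCAGcucaguaggcac

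miR-27a-3p and miR-27b-3p shared the seed UCACAGU and differed at 1 base, C19U, counted from 1 at the 5′ end with the miR-27a-3p base given first. The seed of miR-23a-3p was UCACAUU. miR-24-1-5p and miR-24-2-5p also shared a seed and differed at U17A, U19C, C20A, A21G and G22U, with lengths of 23 and 22 bases. miR-24-3p has the same mature sequence from Mir24-1 and Mir24-2, so its reads cannot be divided between the clusters.

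In the GRCm38 annotation the a cluster lies on chromosome 8, with Mir23a at chr8:84208518-84208592, Mir27a at chr8:84208672-84208758 and Mir24-2 at chr8:84208815-84208921, all on the plus strand. Mir24-2 overlaps an exon of the gene Gm26532. Mir3074-2 lies within the Mir24-2 interval on the minus strand, at chr8:84208825-84208907. The b cluster lies on chromosome 13, with Mir23b at chr13:63300484-63300557, Mir27b at chr13:63300712-63300784 and Mir24-1 at chr13:63301208-63301275 on the plus strand. Mir23b is in an intron of 2010111I01Rik, while Mir27b and Mir24-1 overlap exons of annotated 2010111I01Rik transcripts. All 3 of these hairpins are also antisense to introns of Fancc. Mir3074-1 lies opposite Mir24-1 at chr13:63301199-63301283 on the minus strand.

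The libraries held 2626353 to 4314134 miRNA reads, and a limit of 3 reads corresponded to 0.695 to 1.142 RPM. Intervals on shares and this limit cover counting error only, because the reads carried no molecular identifiers to mark PCR copies. The labelled tissue was checked with 5 hepatocyte miRNAs, including miR-122-5p, which together took 391597 to 419287 RPM in the J group and 392287 to 450543 RPM in the M group. M group replicate 1 stood apart from the other libraries. It is also the only library whose label begins with MX1, while the other M libraries begin with MX2 and the J libraries with GJ2, and the labels do not say what these codes stand for. Its mean Pearson correlation with them on log2(RPM + 1) was 0.937, against 0.969 to 0.974 for each of the others. The summed level of 6 of 6 leukocyte miRNAs was 4782 RPM in M group replicate 1, 1383 and 1461 RPM in the other M libraries and 763 to 1108 RPM in the J group, and none of the 6 was at 0 in every library. The 5 of 5 bile duct miRNAs summed to 4298 RPM in that library and 950 to 2379 RPM elsewhere. The 4 of 5 stromal miRNAs in the table summed to 12582 to 16890 RPM in the J group. In the M group they summed to 16765 to 25242 RPM, with the highest sum in M group replicate 1. Of these 4, 3 were called lower in the J group at the thresholds used below (miR-145a-5p, miR-199a-5p and miR-214-3p), and the median log2 fold change was -0.51. Those calls rest on unadjusted p, and their limma adjusted p were 0.71, 0.43 and 0.71. Of the 6 leukocyte miRNAs, 1 was called lower (miR-342-3p, limma adjusted p = 0.64), all 6 had a log2 fold change below 0, and the median was -0.84. Over all 548 entries tested, 5.29% were called in either direction, 0 had an adjusted p under 0.05, and the median was -0.13. The 5 bile duct miRNAs had a median of -0.68 with 0 called. The 1 of 2 endothelial miRNAs in the table, miR-126a-3p, was at 0.09 and was not called. The 4 of 5 red blood cell miRNAs had a median of -0.13 with 0 called. Their sum was highest in M group replicate 3 (13098 RPM) and lowest in M group replicate 2 (3914 RPM). The part of these marker levels in the values of the members was not tested.

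**Figure D1:**
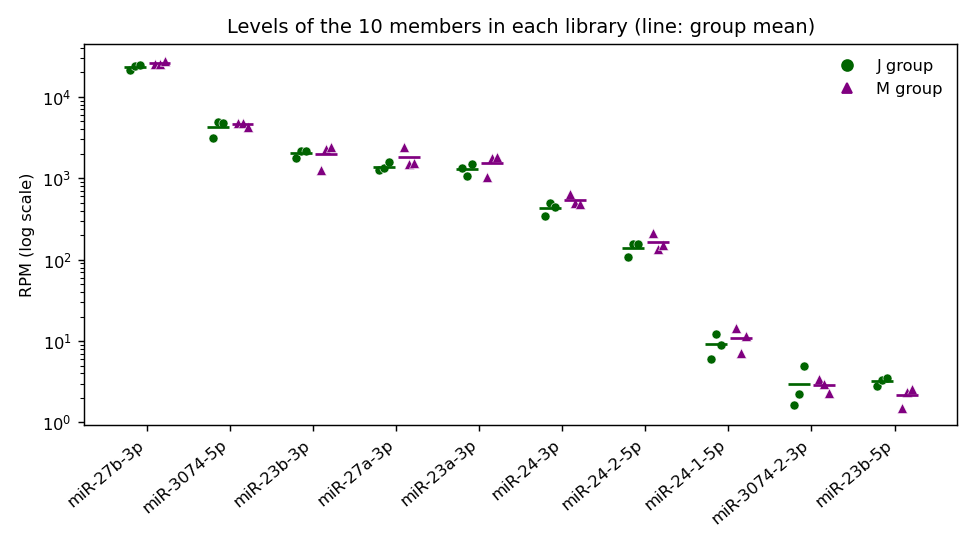
RPM of each of the 10 members in each library on a log axis, with circles for the 3 J group libraries, triangles for the 3 M group libraries and a line at each group mean. The members run from about 24792 RPM for miR-27b-3p down to 2.69 RPM for miR-23b-5p (means over the 6 libraries), and the groups overlap for all members but miR-27b-3p and miR-23b-5p.

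Together the 10 members made up 2.96% to 3.81% of each library. miR-27b-3p was the most abundant of them and ranked 8 of all entries by mean RPM. It alone made up 69.9% to 73.0% of the reads of the members. The order after it was miR-3074-5p, miR-23b-3p, miR-27a-3p, miR-23a-3p, miR-24-3p, miR-24-2-5p, miR-24-1-5p, miR-3074-2-3p and miR-23b-5p. miR-27a-3p and miR-23a-3p, neighbours in this order, exchanged places between libraries, and so their levels do not differ beyond their spread. The ranges of miR-23b-3p and miR-27a-3p, and those of miR-3074-2-3p and miR-23b-5p, also overlapped, while the other neighbours in the order had ranges apart. RPM counts reads and is not divided by length, and the 9 printed sequences are 20 to 23 bases long.

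In the a cluster, miR-23a-3p had 1339, 1075 and 1478 RPM in J group replicates 1 to 3 and 1050, 1780 and 1833 RPM in M group replicates 1 to 3. miR-27a-3p had 1251, 1329 and 1598 RPM in the J group and 2423, 1512 and 1540 RPM in the M group. miR-24-2-5p had 108, 157 and 156 RPM in the J group and 210, 135 and 150 RPM in the M group. The groups overlapped for each of these miRNAs. M group replicate 1 was the lowest of the 6 libraries for miR-23a-3p and the highest for miR-27a-3p and miR-24-2-5p.

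In the b cluster, miR-27b-3p had 21586, 23816 and 24888 RPM in the J group and 25529, 25591 and 27342 RPM in the M group. Every J library was below every M library for this miRNA, but the groups overlapped once RPM was rescaled by the median of ratios or by quantiles. miR-23b-3p had 1767, 2186 and 2185 RPM in the J group and 1273, 2316 and 2438 RPM in the M group, with M group replicate 1 the lowest. miR-24-1-5p, a rare 5p arm, had 6.03, 12.3 and 8.91 RPM in the J group and 14.5, 7.04 and 11.6 RPM in the M group. These were 24 to 50 reads per library, and the groups overlapped.

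miR-23b-5p, the 5p partner of miR-23b-3p, was the rarest member. It had 2.78, 3.35 and 3.56 RPM in the J group (12, 12 and 10 reads) and 1.52, 2.35 and 2.56 RPM in the M group (4, 8 and 11 reads). Every J library was above every M library in RPM, also when rescaled by the median of ratios or by quantiles, although M group replicate 3 had more reads than J group replicate 3. The study picked this miRNA out from the same libraries, so its direction in these libraries is not independent evidence. The paper also measured it by quantitative PCR (qRT-PCR) and describes that result as matching the sequencing.

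By limma on all 6 libraries, none of the 10 members passed the thresholds of the study, an absolute log2 fold change above 0.3 with an unadjusted p under 0.05. The study itself, which does not name its test for this comparison, lists miR-23b-5p as higher in the J group at these thresholds. Of all 548 entries tested by limma on log2(RPM + 1), 29 passed (5.29%), 8 higher and 21 lower in the J group. With an adjusted p under 0.05 the count was 0 of 548 entries (0%) by limma, 0 by edgeR and 2 by DESeq2, and it was 0 of 10 members by each. At an unadjusted p under 0.05, 0 of 10 members were called by limma, by edgeR and by DESeq2, while over all entries the numbers were 29, 45 and 36. The split of the calls moved with the scaling, to 18 higher and 14 lower after median-of-ratios scaling and to 20 higher and 11 lower after quantile normalization. The RPM ranges of the groups were apart for 2 of 10 members, miR-27b-3p and miR-23b-5p, against 13.5% of all entries tested.

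The fold changes of the 10 members had a median of -0.19 on the log2 scale, beside -0.13 for all 548 entries, and 8 were below 0. The members' median was -0.04 without J group replicate 1, the lowest library for 7 of the 10 members, with 6 below 0. It was -0.08 with median-of-ratios scaling, with 7 below 0, and 0.05 with quantile normalization, with 4 below 0. For miR-27a-3p the log2 fold change was -0.36 (SE 0.23, 95% interval -0.91 to 0.19, limma adjusted p = 0.71), and it was -0.14 without M group replicate 1. miR-24-3p had a log2 fold change of -0.35 (SE 0.22, interval -0.87 to 0.17, limma adjusted p = 0.71), and it was -0.21 without J group replicate 1 and -0.22 without M group replicate 1. With quantile normalization miR-27a-3p and miR-24-3p were each at -0.05. The log2 fold change of miR-27b-3p was -0.16 (SE 0.11, interval -0.43 to 0.11, limma adjusted p = 0.71), and it was -0.05 when rescaled by quantiles or by the median of ratios and -0.10 without J group replicate 1. This interval was the narrowest among the members, as the bars in the plot of fold changes show. The value of miR-23b-5p was 0.44 (SE 0.31, interval -0.28 to 1.17, limma adjusted p = 0.71), and that of miR-23b-3p was 0.08 (SE 0.27, interval -0.57 to 0.72, limma adjusted p = 0.94). The log2 fold change of miR-23b-5p moved with the added value, from 0.60 with 0.1 RPM to 0.12 with 10 RPM, and was 0.65 with edgeR and 0.67 with DESeq2 on the reads. Without M group replicate 1 it was 0.29. It passed the thresholds in 0 of 18 alternatives. miR-23b-3p was at -0.22 without M group replicate 1, 0.19 with median-of-ratios scaling and 0.38 with quantile normalization, where it was not called. The remaining 5 members lay between -0.25 and -0.06, with limma adjusted p of 0.79 to 0.97. The lowest of these, miR-24-1-5p at -0.25, ran from -0.52 without M group replicate 2 to -0.02 without J group replicate 1, and it was -0.05 without M group replicate 1 and -0.48 without J group replicate 2. miR-24-2-5p, at -0.23 with all libraries, was at -0.05 without J group replicate 1 or M group replicate 1 and at -0.36 without M group replicate 2. Their sign depended on the scaling for 4 of them, since quantile normalization, which moved the median of all entries to 0.08, gave values above 0 for miR-23a-3p, miR-24-2-5p, miR-3074-5p and miR-3074-2-3p.

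**Figure D2:**
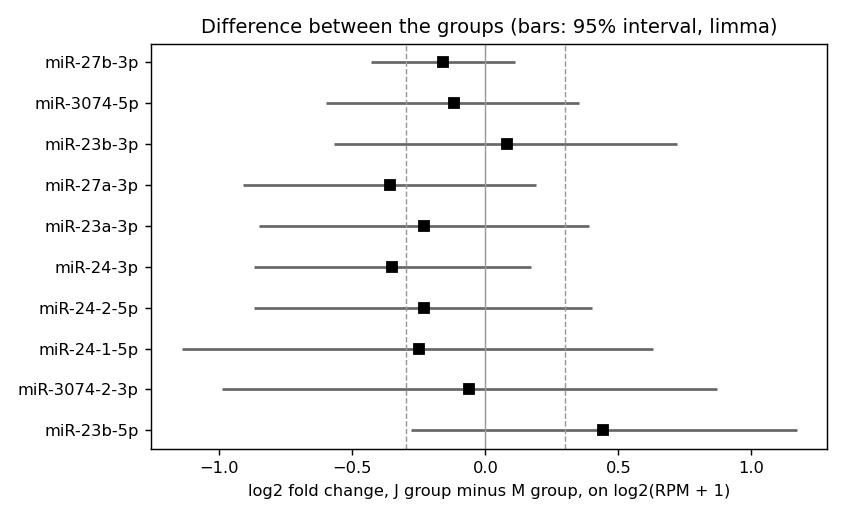
Log2 fold change of each member between the groups, J minus M, on the log2(RPM + 1) scale, with squares for the limma estimate, bars for its 95% interval, a solid line at 0 and dashed lines at the threshold of 0.3 in each direction. All 10 intervals include 0.

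miR-23a-3p was the exception among the fits that left out a library. With all 6 libraries its log2 fold change was -0.23 (SE 0.26, limma adjusted p = 0.79). Without M group replicate 1, the library with the high leukocyte and bile duct sums, it was -0.49 with an unadjusted limma p of 0.0441, past the thresholds of the study. In that fit 34 of all 519 entries tested passed the thresholds, and no entry reached an adjusted p under 0.05. The value of miR-23a-3p was nearer 0 without J group replicate 2 (-0.10), M group replicate 2 (-0.11) or M group replicate 3 (-0.09) and with median-of-ratios scaling (-0.12).

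When the a cluster was summed over miR-23a-3p, miR-27a-3p and miR-24-2-5p, the J libraries had 2699, 2560 and 3233 RPM and the M libraries had 3683, 3428 and 3523 RPM. The sums of the J libraries were all below those of the M libraries in RPM and after median-of-ratios scaling, and they overlapped after quantile normalization. The b cluster, summed over miR-23b-3p, miR-23b-5p, miR-27b-3p and miR-24-1-5p, had 23362, 26017 and 27085 RPM in the J group and 26817, 27916 and 29794 RPM in the M group, and the groups overlapped. These sums were over the members and were given no test. Each miRNA of the a cluster sum overlapped between the groups on its own. Among single entries tested, 13.5% had group ranges apart in RPM.

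The b paralog was above the a paralog for miR-23 and for miR-27, but by unequal amounts. miR-23b-3p was 1.21 to 2.03 times as high as miR-23a-3p, and miR-27b-3p was 10.5 to 17.9 times as high as miR-27a-3p. The suffix of the miR-27a-3p entry in the table gives bases 1 to 17 of 21, a range that ends before base 19, where alone the mature sequences of miR-27a-3p and miR-27b-3p differ. How reads that match both were counted is not given in the sources used here, so the miR-27 ratio is one between entries as named. The miR-23 ratio has the same limit, since no sequence of miR-23b-3p was matched to compare with miR-23a-3p. The mean log2 ratio of a to b was -0.51 ± 0.27 (SD, n = 6) for miR-23 and -3.98 ± 0.29 (SD, n = 6) for miR-27. Each had the same direction in 6 of 6 libraries, with p = 0.0312 in a two-sided exact sign-flip permutation test, the smallest p that 6 libraries allow (adjusted p = 0.0312 by permutation over 4 comparisons). For the rare 5p arms of miR-24 the order was the other way round. miR-24-2-5p of the a cluster was 12.8 to 19.2 times as high as miR-24-1-5p of the b cluster, with a mean log2 ratio of miR-24-1-5p to miR-24-2-5p of -3.96 ± 0.26 (SD, n = 6; exact permutation p = 0.0312, adjusted p = 0.0312). Their suffixes give bases 5 to 22 of 22 for miR-24-2-5p and 2 to 23 of 23 for miR-24-1-5p. This ratio, too, is one between entries as named.

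A share of reads within a library is unchanged when all its values are divided by 1 factor, as in RPM and median-of-ratios scaling, but quantile normalization alters it. The share of miR-23a-3p in all miR-23-3p reads was 43.1%, 33.0% and 40.4% in the J group and 45.2%, 43.5% and 42.9% in the M group. The share of miR-27a-3p in all miR-27-3p reads was 5.48%, 5.29% and 6.04% in the J group and 8.67%, 5.58% and 5.33% in the M group. By these entries, with the limits on telling the paralogs apart given above, the a share was smaller at miR-27 than at miR-23 in 6 of 6 libraries. The a share at miR-27 minus that at miR-23 was -35.27 ± 3.94 percentage points (SD, n = 6; exact sign-flip permutation p = 0.0312, adjusted p = 0.0312). Counting error was small beside these shares. The 95% Wilson interval of the miR-27a-3p share was 8.47% to 8.87% in M group replicate 1 and 5.43% to 5.73% in M group replicate 2.

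**Figure D3:**
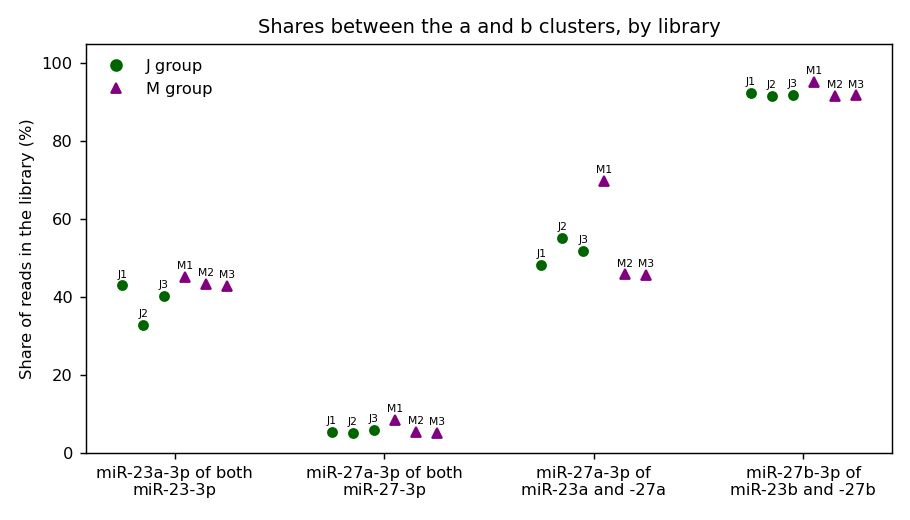
Share of reads in each library, in percent, for 4 pairs of miRNAs, with circles for J group and triangles for M group libraries, each marked with its group letter and replicate number. miR-27a-3p holds 5.29% to 8.67% of the miR-27-3p reads against 33.0% to 45.2% for miR-23a-3p, and M group replicate 1 (M1) lies highest for all 4 shares.

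The balance of miR-27 to miR-23 within a cluster set M group replicate 1 apart more than it set the groups apart. In the a cluster miR-27a-3p was 0.934, 1.24 and 1.08 times as high as miR-23a-3p in the J group and 2.31, 0.850 and 0.840 times in the M group. In the b cluster miR-27b-3p was 12.2, 10.9 and 11.4 times as high as miR-23b-3p in the J group and 20.1, 11.0 and 11.2 times in the M group. M group replicate 1 had the highest ratio in each cluster. The miR-27 share of the miR-23-3p and miR-27-3p reads differed between the groups by -1.94 points in the a cluster (exact permutation p = 1) and -0.936 points in the b cluster (exact permutation p = 0.800). Without M group replicate 1 these differences were 6.05 and 0.229 points, in the opposite direction. That library also had the highest leukocyte, bile duct and stromal sums, and their part in the ratios was not tested.

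For none of 8 shares did the J group differ from the M group in an exact permutation test, in which 3 libraries against 3 cannot give a p below 0.1. The miR-23a-3p share was lower by 5.04 percentage points in the J group on average (38.8% ± 5.25 against 43.9% ± 1.20, SD, n = 3, exact permutation p = 0.200, adjusted p = 0.533). J group replicate 2, at 33.0%, lay farthest from the others, and the difference was -2.12 points without it and -7.19 points without J group replicate 1. The share of 5p reads in miR-23b was 0.157%, 0.153% and 0.163% in the J group and 0.120%, 0.101% and 0.105% in the M group. These did not overlap and gave the smallest p possible (0.1 by exact permutation, adjusted p = 0.533). The counting intervals of single libraries were wide, from 0.0899% to 0.274% in J group replicate 1 and from 0.0465% to 0.307% in M group replicate 1.

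The 3p arm was far above the 5p arm for miR-23b, miR-27a and miR-27b. miR-23b-3p was 613 to 988 times as high as miR-23b-5p. Outside the members, miR-27a-5p had 6.14 to 25.9 RPM and miR-27b-5p 15.1 to 26.0 RPM, so that the 3p arm was 93.6 to 216 times as high for miR-27a and 956 to 1654 times as high for miR-27b. For miR-24 the entry named miR-24-3p was just 2.82 to 3.70 times as high as miR-24-2-5p. The 5p arms took 22.1% to 27.3% of the reads named miR-24, and 2.64% to 4% when the reads named miR-3074-5p were counted with miR-24-3p, an alternative chosen after seeing the data. The level of the 5p share of miR-24 thus depends on the names described next.

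The entries named miR-24 and miR-3074 were therefore set side by side. miR-24-3p had 347, 493 and 440 RPM in the J group and 645, 501 and 484 RPM in the M group. miR-3074-5p had 3153, 4963 and 4722 RPM in the J group and 4745, 4751 and 4249 RPM in the M group. The entry named miR-3074-5p was 7.35 to 10.7 times as high as the one named miR-24-3p in every library, and miR-24-3p is the better known of the names. miR-3074-2-3p had 1.62, 2.23 and 4.99 RPM in the J group (7, 8 and 14 reads) and 3.43, 2.93 and 2.33 RPM in the M group (9, 10 and 10 reads). The groups overlapped for all 3 of these entries.

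**Figure D4:**
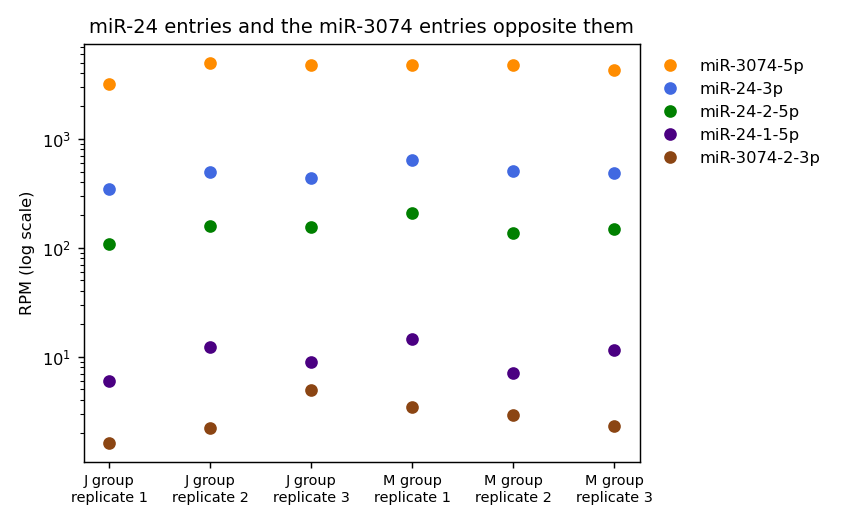
RPM of the miR-24 and miR-3074 members in each of the 6 libraries on a log axis, with 1 colour per entry. In every library the entry named miR-3074-5p lies above miR-24-3p, which lies above miR-24-2-5p, miR-24-1-5p and miR-3074-2-3p in that order.

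The sequences printed above show how the names relate. The reverse complement of bases 1 to 20 of miR-3074-5p is identical to bases 1 to 20 of miR-24-3p, uggcucaguucagcaggaac. The reverse complement of the 20 bases of miR-3074-2-3p is identical to bases 1 to 20 of miR-24-2-5p, gugccuacugagcugaaaca. Entries of the table carry a suffix with a range of bases and the length of the mature sequence, and these ranges run backward for miR-3074-5p (from 20 to 1) and for miR-3074-2-3p (from 20 to 2). Backward ranges were found in 42 of 762 mouse entries, 619 of which carried a range.

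A suffix can also name a substitution. The base it starts from equalled the base of the mature sequence at that position in 20 of 20 names with a forward range or none. In the 2 backward names with a substitution it equalled the mature base in 0 of 2 and the base in the reverse complement of the covered stretch in 2 of 2. One of these is miR-3074-5p, whose suffix names C14U. Among matched entries with a range, the reverse complement of the covered stretch was found in another hairpin for 16 of 34 backward names (47.1%) and 18 of 496 forward names (3.63%). The backward entries summed to 9444 to 13723 RPM per library, of which miR-3074-5p took 33.4% to 46.8%. The table gives no reads by strand, so it cannot be told from which strand the reads named miR-3074-5p came.

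Since reads of the miR-24 hairpins could be divided between these names, their values were also summed. The sum of miR-24-3p and miR-3074-5p was 3501, 5456 and 5162 RPM in the J group and 5390, 5252 and 4732 RPM in the M group, and J group replicate 1 was the lowest. The sum had a log2 fold change of -0.15 (SE 0.20, interval -0.62 to 0.32, limma adjusted p = 0.81), compared with -0.35 for the entry named miR-24-3p and -0.12 (SE 0.20, limma adjusted p = 0.84) for miR-3074-5p. The miR-3074 share of the reads of the miR-24 and miR-3074 members was 87.2%, 88.2% and 88.7% in the J group and 84.5%, 88.1% and 86.8% in the M group (exact permutation p = 0.200, adjusted p = 0.533). The difference of 1.58 points was 0.601 without M group replicate 1 and 2.38 without M group replicate 2. miR-3074-1-3p, at 0.232 to 5.71 RPM, is not a member and was not counted in this share.

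miR-27b-3p also carried a substitution in its name, A6U, which lies inside the seed printed above. How many of its reads held this base is not given in the table. The RPM of miR-27b-3p is therefore the value of an entry under that name.

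The 5 abundant 3p members (miR-23a-3p, miR-23b-3p, miR-27a-3p, miR-27b-3p and miR-24-3p) were compared pairwise over the 6 libraries on log2(RPM + 1). None of the 10 pairs had an adjusted p under 0.05 for Pearson's r or for Spearman's rho by exact permutation, with a smallest adjusted p of 0.406 and 0.583. miR-23a-3p and miR-23b-3p had r = 0.70 (exact permutation p = 0.119) and rho = 0.83 (exact permutation p = 0.0583), and r was 0.92 without the 2 libraries farthest from the median. miR-27a-3p and miR-24-3p had r = 0.83 (exact permutation p = 0.0833) and rho = 0.49 (exact permutation p = 0.356), but r was -0.59 without M group replicate 1 and J group replicate 1, so this relation rested on those libraries. The cluster partners miR-23a-3p and miR-27a-3p had r = -0.30 (exact permutation p = 0.631) and rho = -0.09 (exact permutation p = 0.919), and r turned to 0.64 without M group replicate 1 and J group replicate 2. miR-23b-3p and miR-27b-3p had r = 0.25 (exact permutation p = 0.554) and rho = 0.60 (exact permutation p = 0.242), and r was 0.94 without M group replicate 1 and J group replicate 1. For the partners, too, r thus depended on the libraries left out. Among 274 other entries with a mean of at least 10 RPM, miR-32-5p (r = 0.88), miR-501-3p (r = 0.88) and miR-152-5p (r = 0.87) were most like the mean of the 5 abundant 3p members over the 6 libraries. These libraries share the scaling of RPM and include the 2 groups, and the values are a description.

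Other miRNAs known for roles in liver lipid metabolism were counted in the same fit. Of 19 listed, 17 were tested, 0 were called higher and 1 was called lower in the J group, namely miR-96-5p, against 5.29% of all entries called in either direction. The median log2 fold change was -0.32 for the list and -0.13 for all entries. The most abundant 4 were not called. miR-122-5p, the main hepatocyte miRNA, had a log2 fold change of -0.12 (limma adjusted p = 0.71). For miR-21a-5p it was 0.21 (limma adjusted p = 0.73), and for miR-378a-3p it was -0.00. miR-148a-3p, which targets the LDL receptor mRNA, was at -0.32 (limma adjusted p = 0.71).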

How the data were processed

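Liver small RNA libraries of 3 J and 3 M mice were grouped by the labels. The authors compared unique reads with Rfam and miRBase and deposited RPM, in which the miRNA reads of each library sum to 1000000. The submitters' processing notes name mm9. No aligner and no rule for reads matching several miRNAs is given in the sources used here. 100% of the values were whole multiples of 1 read (tolerance 0.01 reads), which gave the reads. J was compared with M by limma 3.58.1 in R 4.3.3 (two-sided, variance trend, log2(RPM + 1) values), which understates the changes of rare miRNAs. The filter was a mean above 1 RPM in a group, and p were Benjamini-Hochberg adjusted over all 548 entries. Calls use the thresholds of the study. The reads were also tested with DESeq2 1.42.0 and edgeR 4.0.16 as alternatives. Shares and ratios were tested by exact permutation, and p were adjusted within each family.

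All 10 members are named. The 3 entries of like pattern are those with the highest Pearson r, and lists name at most their 4 most abundant miRNAs and any miRNA called. The members and lists were chosen with earlier results of these data known. Replicates are different mice. Their numbers did not pair the mice. Positions are from the GENCODE annotation of GRCm38, and sequences from RefSeq. Python 3.11.15, pandas 2.3.3 and scipy 1.17.1 were used.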

Additional observations from a re-analysis of the deposited data

How the results depend on the processing

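Across 19 listed alternatives of the comparison and 1 added after seeing the data, 21 to 46 entries passed the thresholds. The count was 45 with edgeR and 46 without M group replicate 2. The members called were 0 except without M group replicate 1, where miR-23a-3p made it 1 of 10, beside 34 of 519 entries. For miR-23b-5p the unadjusted p ran from 0.0503, in an unmoderated linear model on RPM, to 0.407. Of 188 values of single members 13 changed sign. With quantile normalization miR-23a-3p was at 0.08, miR-24-2-5p at 0.02, miR-3074-5p at 0.07 and miR-3074-2-3p at 0.07. miR-3074-2-3p was at 0.09 with DESeq2 and edgeR, 0.01 with median-of-ratios scaling and 0.03 in the unmoderated model on RPM. With a library left out it ranged from -0.41 to 0.19, miR-3074-5p from -0.25 to 0.08 and miR-23b-3p from -0.22 to 0.25. Of 56 differences in shares, 6 changed sign with a library left out. The miR-27a-3p share ranged from -1.52 to 0.144 points, the miR-24-1-5p share from -0.846 to 0.296, the miR-27 share from -6.01 to 6.05 in the a cluster and from -1.55 to 0.229 in the b cluster. Counting miR-3074-5p with miR-24-3p, added after seeing the data, turned the difference of the miR-24 5p share, 1.49 points as named and 0.382 to 2.23 with a library left out, to -0.232 points. With a library left out, the log2 ratio of miR-23a-3p to miR-23b-3p ranged from -0.56 to -0.41, that of miR-27a-3p to miR-27b-3p from -4.09 to -3.94, that of miR-24-1-5p to miR-24-2-5p from -4.02 to -3.90, and the difference in the a share from -36.79 to -34.75 points. These kept their direction, while 5 libraries cannot give an exact permutation p below 0.0625. The cause of the other changes was not tested. Mice with the same replicate number did not deviate together (r of 0.05, 0.06 and -0.01), and with the replicate block 27 entries and 0 members passed. Members with under 20 reads in a library, miR-23b-5p and miR-3074-2-3p, are limited by depth.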
